A study of Mus musculus with 4 samples.

Results

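The EGF receptor family and its ligands were examined in RNA-seq of epithelium sorted from growing mouse prostate tips. The set held 10 genes of the 49671 in the table, taken by name: the 4 receptors Egfr, Erbb2, Erbb3 and Erbb4 and the 6 ligands Areg, Ereg, Hbegf, Tgfa, Btc and Nrg1. Multipotent basal cells (EpCAM high, CD49f high) were compared with the luminal cells that arise from them (EpCAM high, CD49f low), with 2 libraries each. Basal libraries carry the replicate numbers 1 and 3 and luminal ones 3 and 2, and values are given in that order throughout. All mice were untreated CD-1 animals, aged 10 to 13 days after birth by the labels, where the methods give a range ending a day earlier and describe males of mixed background, and the cells came from the ventral lobe. Cells carrying CD45, CD31 or CD140a were removed before the sort. Tissue of several mice was used, and neither the labels nor the methods tie a library to a mouse, so p-values measure the spread between these libraries, which may be technical.

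ERBB receptors are tyrosine kinases that pair with each other when a ligand binds, and the active pair signals through RAS-MAPK and PI3K-AKT. ERBB2 has no known ligand of its own and serves as a partner, ERBB3 has little kinase activity and signals through its partners, and EGFR and ERBB4 bind ligands and are active kinases. Most ligands are made as membrane proteins and released by proteases, and in stratified and glandular epithelia the family is known for its part in growth, survival and repair.

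Values are reads on a gene normalized by the authors to a common total per library, called normalized values here. Reads recovered from the spacing of these values were 3194291 and 3080222 in the basal and 1036682 and 643268 in the luminal libraries. 1 read was worth 6.26, 6.49, 19.4 and 31.2 in that order, so a low value in a luminal library rests on very few reads, and depth and cell type cannot be told apart. Of the 7 basal marker genes, 7 were at least 2-fold higher in basal cells (16.3% of all genes), among them Krt5 (18481 and 15824 in basal, 77 and 93 in luminal libraries). Of the 8 luminal markers, 5 were at least 2-fold higher in luminal cells (18.3% of all genes), among them Krt19 (601 and 552 in basal, 8306 and 4332 in luminal libraries). The 6 fibroblast markers summed to 100128 and 206090 in the basal and 70885 and 196201 in the luminal libraries. Markers of smooth muscle summed to 30255 and 52272 in basal and 9887 and 60111 in luminal libraries, those of immune cells to 3350 and 1734 against 833 and 2118, and those of endothelial cells to 1523 and 1572 against 445 and 1495. Of these 4 sums, that of endothelial cells alone did not overlap between the cell types. The sum of Schwann and glial markers, given with Nrg1 below, did not overlap either. Within the fibroblast list, Dcn, which encodes the matrix proteoglycan decorin, was at 45830 and 47724 in basal and 5770 and 20256 in luminal libraries, 3.59-fold higher in basal cells (limma adjusted p = 0.143, edgeR adjusted p = 0.0395, DESeq2 adjusted p = 0.00933). It was the 1 gene of that list called by edgeR and DESeq2, and it was named after its values were seen. The other 5 genes overlapped between groups, with luminal averages 1.03-fold (Col1a1) to 1.47-fold (Pdgfra) those of basal cells. The part of RNA from such cells in the values that follow was not tested.

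Luminal libraries held less Egfr, Tgfa and Nrg1 and more Erbb3 and Erbb4 than basal libraries, and Hbegf was the most abundant ligand in both cell types. With limma on log2(value + 1), adjusted by Benjamini-Hochberg over 18737 genes, 0 of the 10 genes passed an adjusted p of 0.05. That test called 0.694% of all genes, 0.256% higher in luminal and 0.438% higher in basal cells. An unadjusted p under 0.05 was reached by 7 of the 10 genes, against 18.5% of all genes. edgeR's quasi-likelihood test on the recovered reads called 2 of the 10 higher in luminal cells (Erbb3 and Erbb4; 2.35% of all genes) and 3 higher in basal cells (Egfr, Tgfa and Nrg1; 2.71% of all genes), 5.06% of all genes in either direction. DESeq2 called the same 2 luminal genes (2.15% of all genes) and Egfr, Ereg and Nrg1 in basal cells (2.22% of all genes), 4.37% in either direction. By the ratio of group averages, the study's own criterion, 2 genes were at least 2-fold higher in luminal cells (18.3% of all genes) and 4 in basal cells (16.3%), 34.6% of all genes in either direction. The groups did not overlap in 3 genes higher in luminal (23.6% of all genes) and 5 higher in basal cells (27.3%), 50.9% in either direction. All 10 genes passed the filter on low values, Ereg through the basal group alone and Btc through the luminal group alone. The DESeq2 and fold calls of Ereg are therefore a description only. The median log2 fold change (luminal over basal) over all 18737 genes was -0.10, and each fold change here reads against that.

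**Figure D1:**
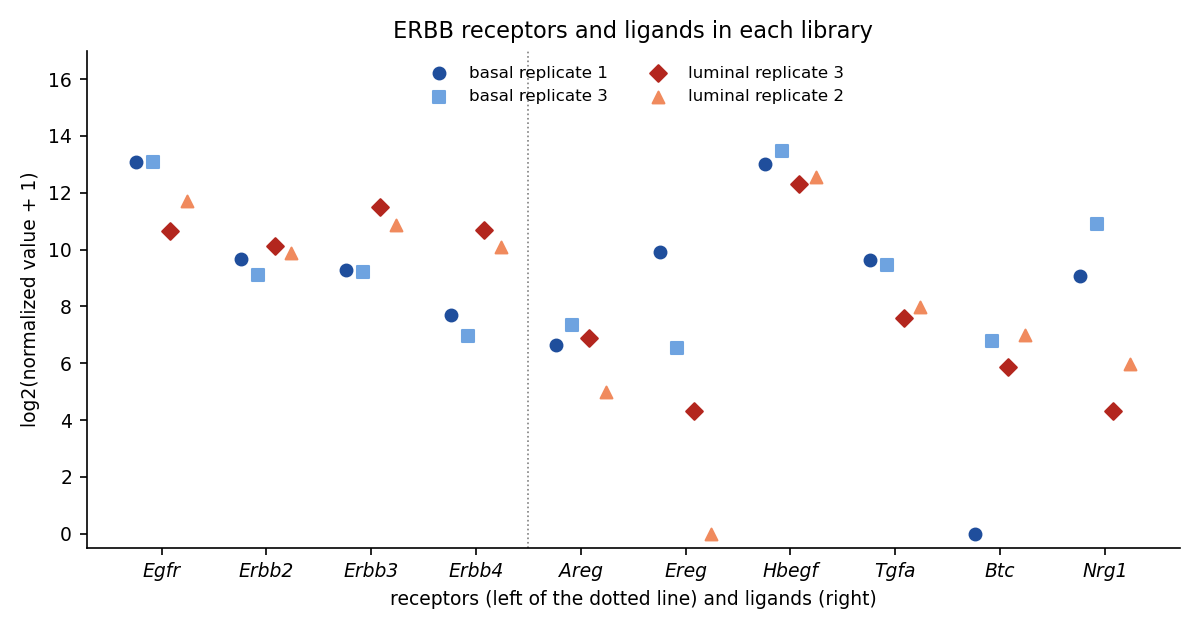
Normalized values of the 4 receptors and 6 ligands in each library, as log2(value + 1), 1 point per library and gene. Both basal points lie above both luminal points for Egfr, Ereg, Hbegf, Tgfa and Nrg1, below them for Erbb2, Erbb3 and Erbb4, and among them for Areg and Btc.

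The stretches before the annotated start of Egfr, Tgfa and Erbb4 are shown because the first pair was lower and the last higher in luminal cells. A 250-base window from RefSeq's GRCm38.p6 was found for 6 of the 10 genes (Egfr, Erbb2, Erbb4, Areg, Tgfa and Btc). Each is printed 5′ to 3′ on the strand of its gene, with matches to GGGCGG, searched on both strands, in capitals. Egfr lies at chr11:16751953-16752202 (plus strand), Tgfa at chr6:86194972-86195221 (plus strand) and Erbb4 at chr1:69108060-69108309 (minus strand).
Egfr: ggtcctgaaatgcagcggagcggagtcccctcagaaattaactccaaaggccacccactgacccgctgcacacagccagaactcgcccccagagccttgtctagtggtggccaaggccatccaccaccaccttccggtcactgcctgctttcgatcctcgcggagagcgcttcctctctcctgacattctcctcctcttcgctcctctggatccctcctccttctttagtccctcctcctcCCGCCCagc
Tgfa: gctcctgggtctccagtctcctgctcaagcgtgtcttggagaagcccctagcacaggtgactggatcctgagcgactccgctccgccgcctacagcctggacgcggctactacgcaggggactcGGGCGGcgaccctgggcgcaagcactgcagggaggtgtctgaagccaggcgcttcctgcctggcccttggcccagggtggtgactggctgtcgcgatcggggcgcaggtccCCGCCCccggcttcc
Erbb4: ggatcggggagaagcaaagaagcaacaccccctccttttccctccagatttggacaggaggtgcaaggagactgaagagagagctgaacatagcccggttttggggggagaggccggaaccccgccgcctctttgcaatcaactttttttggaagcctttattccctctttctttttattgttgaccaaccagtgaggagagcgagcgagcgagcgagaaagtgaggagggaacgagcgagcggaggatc

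The Egfr window held 1 GGGCGG, 9 bases from the start, and had 60.8% G and C. The Tgfa window held 2, at 126 and 15 bases, with 69.2% G and C, and the Erbb4 window held 0, with 54.0%. GGGCGG, the core of the GC box, was found in 32.7% of 32851 windows of the same length. TATAAA, the TATA box core, was found in 12.4% of all windows and in that of Areg alone among the 6. TGANTCA, the AP-1 core, was found in 6.75% of all windows and in 0 of the 6. The median G and C content was 60.2% over the 6 genes and 52.4% over all windows.

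Egfr, the receptor for EGF, TGF-alpha and amphiregulin, was the leading receptor of basal cells. Egfr (ENSMUSG00000020122, GRCm38 chr11:16752203-16918158) was at 8761 and 8698 in the basal and 1626 and 3334 in the luminal libraries, from 1399, 1340, 84 and 107 reads. Both luminal libraries lay below both basal ones, and the luminal pair was wide apart. The average was 8730 ± 44.5 (SD, n = 2) in basal and 2480 ± 1208 (SD, n = 2) in luminal cells, 3.52-fold higher in basal cells. The log2 fold change was -1.91 with a standard error of 0.37 (limma adjusted p = 0.0705, edgeR adjusted p = 0.00902). The ratio of reads per total reads, luminal over basal, was 0.260, with an exact 95% interval of 0.224 to 0.302 that covers counting error only. In bulk samples, fewer cells with a transcript and less transcript per cell cannot be told apart.

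Erbb2 (ENSMUSG00000062312, chr11:98412470-98437716), the partner without a ligand, was at 814 and 546 in the basal and 1104 and 935 in the luminal libraries. Both luminal values were above both basal values by a small margin, with averages of 680 ± 189.5 (SD, n = 2) and 1019.5 ± 119.5 (SD, n = 2). This gave a log2 fold change of 0.61 with a standard error of 0.33 (limma adjusted p = 0.392, edgeR adjusted p = 0.381). The log2 fold change ran from 0.32 without basal replicate 3 to 0.89 without basal replicate 1. It was the smallest difference among the 4 receptors, and neither test separated it from the spread between libraries.

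Erbb3 (ENSMUSG00000018166, chr10:128567523-128589652), a neuregulin receptor, was at 620 and 585 in the basal and 2866 and 1870 in the luminal libraries. The luminal values were all above the basal ones, and the average was 3.93-fold higher, 2368 ± 704 against 602 ± 24.7 (SD, n = 2 each). The log2 fold change was 1.94 with a standard error of 0.31 (limma adjusted p = 0.0659, edgeR adjusted p = 0.00560), and the read-rate ratio was 4.11 (3.36 to 5.03).

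Erbb4 (ENSMUSG00000062209, chr1:68032186-69108059), the other neuregulin receptor, had the largest relative difference of the receptors. Its values were 207 and 123 in the basal and 1665 and 1091 in the luminal libraries, from 33, 19, 86 and 35 reads. Luminal libraries were all above basal ones, and the part of their lower depth was not tested. The average was 8.35-fold higher in luminal cells, with a log2 fold change of 3.07 and a standard error of 0.44 (limma adjusted p = 0.0624, edgeR adjusted p = 0.00154). The read-rate ratio was 8.69 (6.23 to 12.3).

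Levels of different genes were set side by side as normalized value per kb of exon. The 4 receptors summed to 1049.6 and 980.0 per kb in the basal and 967 and 873 in the luminal libraries. Both luminal sums were slightly below both basal ones, and the make-up of the sum was different. Egfr took 73.7% and 78.4% of the receptor sum in the basal and 14.9% and 33.7% in the luminal libraries. The share was lower in both luminal libraries, 24.3% ± 13.3 against 76.0% ± 3.30 (SD, n = 2 each), a difference of -51.7 percentage points. Erbb3 took 9.82% and 9.92% in basal and 49.3% and 35.6% in luminal libraries. In luminal replicate 2 this was close to the 33.7% of Egfr. Erbb2 held 14.9% and 10.7% in basal and 21.9% and 20.6% in luminal libraries. Erbb4 held 1.60% and 1.02% in basal and 13.9% and 10.1% in luminal libraries. The ratio of Egfr to Erbb3 plus Erbb4 was 6.46 and 7.16 in the basal and 0.235 and 0.737 in the luminal libraries. Within a library such shares do not move with its scaling.

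Counted as reads, without a correction for length, Egfr held 84.2% (95% Wilson interval 82.4 to 85.9) of 1661 receptor reads in basal replicate 1 and 87.4% (85.7 to 89.0) of 1533 in basal replicate 3. It held 22.4% (18.5 to 26.9) of 375 in luminal replicate 3 and 46.1% (39.8 to 52.5) of 232 in luminal replicate 2. Erbb3 held 5.96% and 5.87% of receptor reads in basal libraries and 39.5% (34.7 to 44.5) and 25.9% (20.7 to 31.9) in the luminal ones, so Egfr led by reads in luminal replicate 2. The Egfr intervals of both luminal libraries lay below those of both basal libraries and did not overlap each other, so the luminal replicates differed by more than counting error. A two-sided exact permutation test of 2 libraries against 2 gave p = 0.333 for the share of each of the 4 receptors, the smallest p this design allows.

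**Figure D2:**
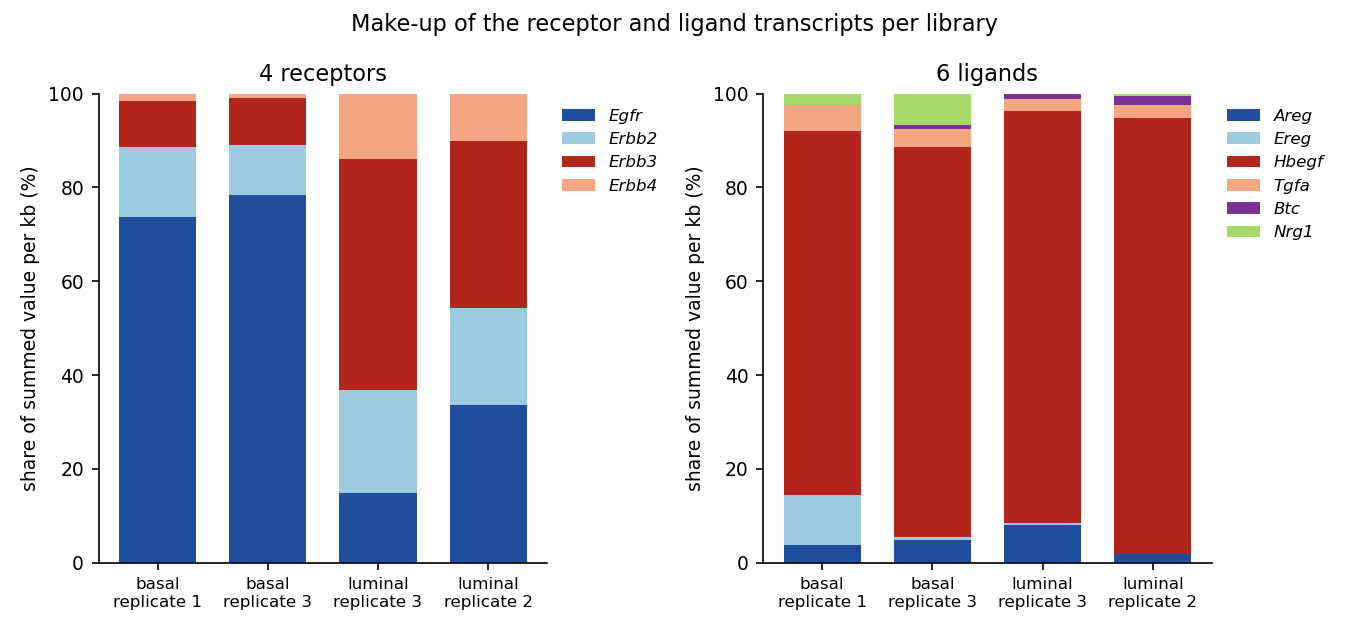
Share (%) of each gene in the summed normalized value per kb of exon, for the 4 receptors (left) and the 6 ligands (right), with 1 bar per library. Egfr fills 73.7% and 78.4% of the basal receptor bars and 14.9% and 33.7% of the luminal ones, and Hbegf fills 77.7% to 92.8% of every ligand bar.

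Among the ligands, Hbegf, a heparin-binding ligand of EGFR and ERBB4, had the highest level in every library. Hbegf (ENSMUSG00000024486, chr18:36504927-36515805) was at 8279 and 11218 in the basal and 5073 and 6077 in the luminal libraries. Both luminal values were lower, and the basal average was 1.75-fold higher, 9748 ± 2078 against 5575 ± 709.9 (SD, n = 2 each). limma fitted a log2 fold change of -0.80 with a standard error of 0.25 (limma adjusted p = 0.189, edgeR adjusted p = 0.169). It was -0.38 after quantile normalization and -0.49 when scaled to nuclear protein-coding genes. Hbegf still took a larger part of the ligand sum per kb in luminal cells, 77.7% and 83.0% in basal against 87.9% and 92.8% in luminal libraries. The difference was 9.96 percentage points (exact permutation p = 0.333, the smallest possible).

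Tgfa (ENSMUSG00000029999, chr6:86195223-86275719), an EGFR ligand, was at 795 and 708 in the basal and 194 and 249 in the luminal libraries. The luminal pair rested on 10 and 8 reads and lay below the basal pair, which was 3.39-fold higher on average. The log2 fold change was -1.77 with a standard error of 0.37 (limma adjusted p = 0.0705, edgeR adjusted p = 0.0425, DESeq2 adjusted p = 0.112), so the call depended on the tool.

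Nrg1 (ENSMUSG00000062991, chr8:31814551-32884029), which encodes the neuregulin that binds ERBB3 and ERBB4, ran opposite to these receptors. It was at 539 and 1923 in the basal and 19 and 62 in the luminal libraries. The luminal values stood for 1 and 2 reads against 86 and 296 basal reads, and the basal libraries were themselves far apart. The read-rate ratio, luminal over basal, was 0.0293 (0.00602 to 0.0864). limma gave an adjusted p of 0.0688, edgeR 0.00499 and DESeq2 0.000142. The fitted log2 fold change of -4.84 depends on the pseudocount of 1 and is no bound, and it ran from -5.76 without basal replicate 1 to -3.93 without basal replicate 3. The 5 Schwann and glial markers summed to 550 and 993 in basal and 77 and 124 in luminal libraries. Of these markers 3 passed the filter, and all 3 were at least 2-fold higher in basal cells (16.3% of all genes). Groups did not overlap in 2 of them, with basal libraries higher (27.3% of all genes). In basal cells edgeR and DESeq2 each called 1 (2.71% and 2.22% of all genes), and the list's median log2 fold change was -3.19. The glial gene Gfap was at 0 and 6 in basal replicates 1 and 3 and listed at 0 in both luminal ones. Their part in the Nrg1 result was not tested.

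Ereg (ENSMUSG00000029377, chr5:91074622-91093646) encodes epiregulin, a ligand of EGFR and ERBB4. It was at 964 and 91 in the basal and 19 and 0 in the luminal libraries. A single basal library carried most of the signal, with 154 of 168 basal reads, and the luminal libraries together held 1 read. The read-rate ratio was 0.0222, with a wide interval of 0.00056 to 0.126. Ereg entered the tests through the basal group alone, where it was high, so its p-values are a description only. The adjusted p was 0.181 with limma, 0.0586 with edgeR and 0.0269 with DESeq2. limma's fitted log2 fold change of -6.06 depends on the pseudocount and is no bound, and it ran from -8.22 without luminal replicate 3 to -3.90 without luminal replicate 2.

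Areg (ENSMUSG00000029378, chr5:91139599-91148432), encoding amphiregulin, was at 100 and 162 in the basal and 116 and 31 in the luminal libraries. The groups overlapped, and the last value stood for 1 read. The log2 fold change was -1.07 with a standard error of 0.94 (limma adjusted p = 0.567, edgeR adjusted p = 0.740). It was -0.13 without luminal replicate 2 and -2.003 without luminal replicate 3.

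Btc (ENSMUSG00000082361, chr5:91357261-91402994), encoding betacellulin, was at 0 and 110 in the basal and 58 and 125 in the luminal libraries. The groups overlapped here too, and the luminal values stood for 3 and 4 reads. limma gave an adjusted p of 0.516, and the fitted log2 fold change of 3.03 turned to -0.36 without basal replicate 1, the library at 0.

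**Figure D3:**
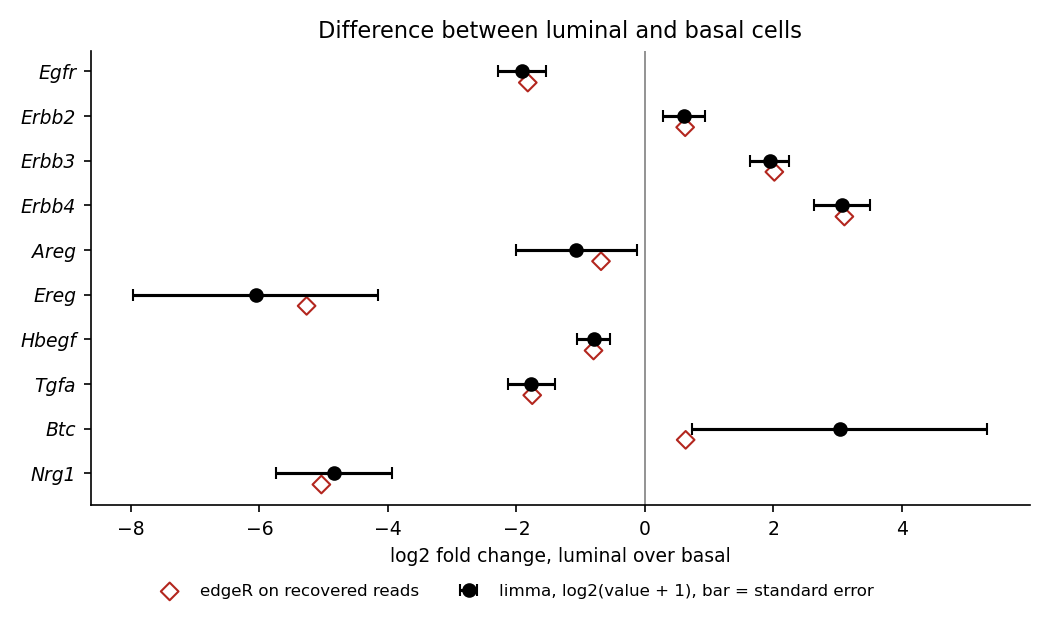
log2 fold change, luminal over basal, of each receptor and ligand. Circles are limma on log2(value + 1) with bars of 1 standard error, and diamonds are edgeR on recovered reads. Egfr, Ereg, Tgfa and Nrg1 lie furthest left, from -1.77 to -6.06 with limma, Erbb3 and Erbb4 lie right at 1.94 and 3.07, and Btc has the widest bar.

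Per kb of exon, the order of levels in basal cells began with Hbegf (2017) and Egfr (771), each clear of the next gene in both libraries. Erbb2, Ereg, Nrg1, Tgfa, Areg and Erbb3 followed between 131 and 100.15, and each overlapped its neighbour. Erbb4 (13.4) and Btc (12.2) came last and overlapped. In luminal cells Hbegf (1153) was again first, followed by Erbb3 (394) and then by Egfr (219) and Erbb2 (196), whose ranges overlapped. Erbb4 (112), Areg (60.5) and Tgfa (34.1) overlapped in turn. Btc (20.2) was clear of Tgfa but overlapped Areg, and Nrg1 (3.91) and Ereg (2.30) overlapped at the bottom. The 6 ligands summed to 2203 and 2795 per kb in the basal and 1194 and 1355 in the luminal libraries, lower in both luminal libraries.

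Some of these genes share their locus with others. Ereg, Areg and Btc lie in a row on chromosome 5 with Epgn, a further ligand gene, within 375531 bases. Epgn was at 69 and 455 in basal and 39 and 31 in luminal libraries, so basal replicate 1 was the higher basal library for Ereg and the lower one for Epgn, Areg and Btc. The antisense gene Egfros, inside Egfr, was at 438 and 695 in basal and 155 and 218 in luminal libraries. Gm26578, a noncoding gene on the strand opposite Nrg1, was at 225 and 383 in basal and 19 and 0 in luminal libraries. Both had higher values in basal libraries, as their host genes did. The use of strand in counting is not given in the sources used here, so reads of such pairs cannot be told apart.

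The genes whose profile over the 4 libraries was nearest to Egfr included Ssbp2, Cdkn1c, App and Gem, at Euclidean distances of 0.0979 to 0.205 between centred log2(value + 1) profiles. App, for example, was at 18957 and 19013 in basal and 4008 and 7635 in luminal libraries. With 4 libraries this is a description only.

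The wider pathway was read through 6 lists of 75 genes in all, of which 74 passed the filter. By the ratio of averages 4 of these were at least 2-fold higher in luminal and 23 in basal cells, against 18.3% and 16.3% of all genes, the shares to set beside the counts of each list that follows. limma called 0 higher in luminal cells and 1 higher in basal cells (0.256% and 0.438% of all genes), with 31 genes in either direction at an unadjusted p under 0.05 (18.5% of all genes). edgeR called 2 and 10 (2.35% and 2.71% of all genes), and DESeq2 called 2 and 7 (2.15% and 2.22%). The median log2 fold change was -0.62, against -0.10 over all genes.

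Of the 5 other ligand genes, 4 passed the filter, and Nrg3 was listed at 0 in all libraries. Egf, the founding ligand of EGFR, was alone among these 4 in being at least 2-fold higher in luminal cells, at 50 and 13 in the basal and 1007 and 779 in the luminal libraries. The groups were far apart, although the basal values stood for 8 and 2 reads. Its log2 fold change was 5.05 with a standard error of 0.81 (limma adjusted p = 0.0659, edgeR adjusted p = 0.000750). Nrg2, a second neuregulin gene, was at 820 and 611 in basal and 19 and 218 in luminal libraries (limma adjusted p = 0.209, edgeR adjusted p = 0.0384). Nrg4 was at 188 and 65 in basal and 136 and 93 in luminal libraries, with overlap. The list's median was -1.15.

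Of 9 genes for ligand release, 5 had basal libraries that were all above the luminal ones and 0 the reverse, against 27.3% and 23.6% of all genes. By the ratio of averages, 1 was at least 2-fold higher in luminal cells (Adam12, 188 and 123 against 136 and 654) and 1 in basal cells (Rhbdl2, 31 and 78 against 39 and 0), and both overlapped between groups. Adam17, the main sheddase of EGFR ligands, was at 1146 and 994 in basal and 813 and 623 in luminal libraries (limma adjusted p = 0.361). The neuregulin-cleaving protease gene Bace1 was at 1641 and 1520 in basal and 833 and 1028 in luminal libraries (limma adjusted p = 0.207). The median log2 fold change was -0.37, or -0.62 without luminal replicate 3, and limma, edgeR and DESeq2 called 0 of the 9, with 1 at an unadjusted limma p under 0.05.

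Of 17 adaptor and RAS-MAPK genes, 1 was at least 2-fold higher in luminal and 2 in basal cells, with a median of -0.38, which was -0.20 without basal replicate 1. The docking protein gene Gab2 was at 182 and 286 in basal and 581 and 841 in luminal libraries (edgeR adjusted p = 0.0760). Nras was at 3269 and 3923 in basal and 1588 and 1558 in luminal libraries (limma adjusted p = 0.0705, edgeR adjusted p = 0.0477). Hras was at 620 and 390 in basal and 155 and 218 in luminal libraries (limma adjusted p = 0.206). Groups did not overlap for any of these 3 genes, which were picked for the size of their ratio. Over the 17 genes, groups did not overlap in 4 higher in luminal (23.6% of all genes) and 8 higher in basal cells (27.3%).

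Of 15 genes of the PI3K-AKT, PLC, SRC and STAT branches, 1 was at least 2-fold higher in luminal and 3 in basal cells. The median was -0.15 and turned to 0.21 without luminal replicate 3, with -0.22 without basal replicate 1 and -0.46 without luminal replicate 2. Pik3cb, a catalytic PI3K subunit, was at 451 and 305 in basal and 1568 and 997 in luminal libraries (limma adjusted p = 0.0791, edgeR adjusted p = 0.0212). The regulatory subunit gene Pik3r1 was at 11079 and 6924 in basal and 2246 and 5391 in luminal libraries (limma adjusted p = 0.233). The kinase gene Src was at 1572 and 1020 in basal and 465 and 436 in luminal libraries (limma adjusted p = 0.0833, edgeR adjusted p = 0.0468). Among the other subunit genes, the catalytic Pik3ca was at 3332 and 3040 in basal and 2149 and 1901 in luminal libraries, and Pik3cd at 56 and 26 against 58 and 62. The regulatory Pik3r2 was at 1609 and 987 against 774 and 561, and Pik3r3 at 263 and 429 against 581 and 686. These 4 were named after their values were seen. In that order their adjusted p was 0.208, 0.729, 0.261 and 0.308 with limma and 0.274, 0.809, 0.225 and 0.314 with edgeR. The luminal values of Pik3cd stood for 3 and 2 reads.

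Of 13 receptor inhibitors, 0 were at least 2-fold higher in luminal and 3 in basal cells, with a median of -0.74, which was -0.41 without luminal replicate 3. Lrig1, which promotes the breakdown of ERBB receptors and marks stem cells in several epithelia, was at 4628 and 2579 in basal and 658 and 1060 in luminal libraries. Its log2 fold change was -2.05 with a standard error of 0.40 (limma adjusted p = 0.0705, edgeR adjusted p = 0.00658). Lrig3 was at 1760 and 851 in basal and 290 and 530 in luminal libraries, and the phosphatase gene Ptpn1 at 1647 and 1578 in basal and 736 and 561 in luminal libraries. All 3 had groups that did not overlap, and all were picked for the size of their ratio. Over the 13 genes, groups did not overlap in 2 higher in luminal (23.6% of all genes) and 9 higher in basal cells (27.3%).

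Feedback and response genes of the MAPK pathway lay mostly on the basal side. Of 16 genes, 12 were at least 2-fold higher in basal cells (16.3% of all genes) and 0 in luminal cells (18.3%), and in 15 the basal libraries were all above the luminal ones (27.3% of all genes). The median log2 fold change was -1.49. Dusp6, the phosphatase that turns ERK off, was at 13308 and 14278 in basal and 1665 and 1278 in luminal libraries. It was lower in luminal cells by a log2 fold change of -3.24 with a standard error of 0.24 (limma adjusted p = 0.0247), the only gene of the 6 lists that passed limma. Spred2, an inhibitor of RAS-MAPK, was at 4421 and 2592 in basal and 600 and 530 in luminal libraries (limma adjusted p = 0.0527, edgeR adjusted p = 0.00154). Etv4, an ETS factor induced by this pathway, was at 651 and 838 in basal libraries, while the luminal values of 19 and 31 stood for 1 read each (limma adjusted p = 0.0567, edgeR adjusted p = 0.00163). edgeR also called Spry1, Spry2 and Ier3 higher in basal cells, genes named here after their values were seen. These genes respond to other growth factor receptors as well, FGF receptors included.

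**Figure D4:**
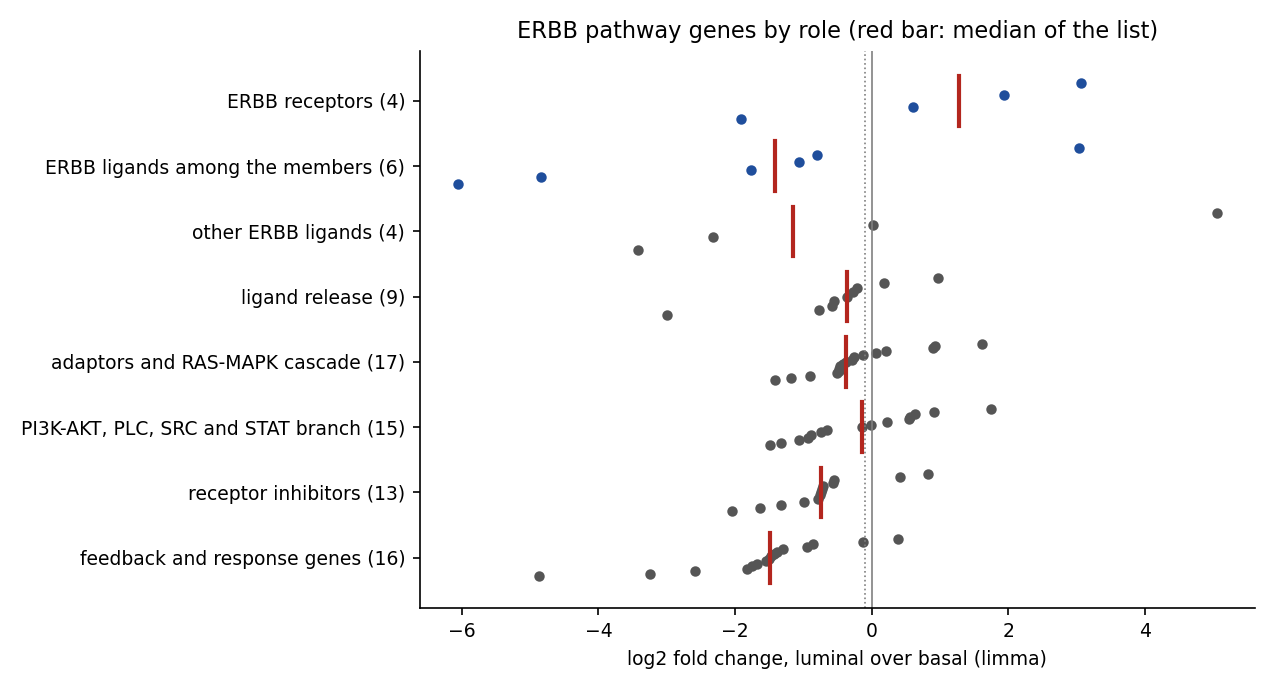
log2 fold change, luminal over basal, from limma for each gene of the ERBB lists that passed the filter (number in brackets), with 1 point per gene and a red bar at the median of each list. The dotted line is the median of all genes, -0.10. The feedback and response genes have a median of -1.49, and the receptors lie on both sides of 0.

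Immediate early genes are known to be induced during tissue digestion, and they were counted as a separate list. The 15 dissociation and immediate early genes, which share Egr1 with the response list, summed to 460517 and 251013 in the basal and 179103 and 259428 in the luminal libraries. Groups overlapped in this sum, and the median log2 fold change was -0.45. Egr1 was at 89230 and 48562 in basal and 25500 and 46058 in luminal libraries, Fos was at 63948 and 22988 in basal and 14212 and 28046 in luminal libraries, and Nr4a1 was at 69872 and 32401 in basal and 20834 and 27953 in luminal libraries. limma, edgeR and DESeq2 called 0 of the 15, with 0 at an unadjusted limma p under 0.05. The 10 proliferation genes summed to 4115 and 6099 in basal and 6391 and 4517 in luminal libraries, with overlap and a median of 0.34. Of these, Cdk1 was at least 2-fold higher in luminal cells (50 and 97 against 194 and 187) and Pcna in basal cells (1159 and 1254 against 445 and 748), while Top2a was at 526 and 831 against 1239 and 810. The part of either list in the values of the ERBB genes was not tested.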

How the data were processed

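RNA-seq of 2 basal and 2 luminal libraries was analysed, grouped by cell type as labelled. The authors aligned reads with STAR to GRCm38 (mm10), counted them per gene with HTSeq on Ensembl's release 87 annotation, and deposited a signal: gene counts scaled to the same number of aligned reads per library and rounded. Picard is also named in the submitters' processing notes. Duplicate removal, strand use and the versions of these tools are not given in the sources used here. The table held genes that the authors' low-value filter would remove, and 0 columns were unmapped.

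A gene was kept when all libraries of 1 group were at 10 or more and averaged 20 or more (18737 genes). limma 3.58.1 (R 4.3.3, trended prior, pseudocount 1, Benjamini-Hochberg adjustment over all kept genes) was the main test. The study's criterion, a ratio of averages of at least 2 or at most 0.5, is given as a description. Values up to 60 reads lay on multiples of 1 read (within 0.6) for 97.9% to 99.0% of genes, and these whole reads were tested with edgeR 4.0.16 and DESeq2 1.42.0. In luminal replicate 2, 303 genes lay on another spacing, with none of the 10 genes among them. Intervals cover counting error only. Coordinates and exon lengths came from GENCODE's GRCm38 annotation (49412 of 49671 identifiers matched). The same tests were also run on simulated counts with 200 genes changed. These counts had a common dispersion for all genes, so they do not speak to genes with uneven replicates. Alternatives changed the filter, pseudocount, scaling, fold threshold and tool, and left out each library.

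The 10 genes and all lists were chosen with earlier results of these data known. Beyond them, up to 3 genes of each list with the largest ratio of averages at an average of 100 or more were named, with each list gene that passed limma and the 5 nearest profiles to Egfr. Nrg3, Nrg4, Rhbdl2, single marker genes and genes of shared loci were named after their values were seen. Some genes that these rules name are not reported here. Python 3.11.15, numpy 2.4.6, pandas 2.3.3, scipy 1.17.1 and matplotlib 3.10.9 were used.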

Additional observations from a re-analysis of the deposited data

How the results depend on the processing

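No paired analysis was possible because the basal and luminal libraries share only replicate number 3, fewer than 2 numbers. With 2 libraries per group and 643268 to 3194291 reads, low genes such as Btc, Areg and Ereg rest on few reads in luminal libraries, where 1 read is worth 19.4 to 31.2.

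The number of calls depended on the filter and the model. Over all genes limma called 48 higher in luminal and 82 in basal cells, against 0 and 0 without a filter, 269 and 409 with the filter in both groups, 217 and 315 at an average of 100, 212 and 319 with pseudocount 10, 274 and 394 with pseudocount 32, and 356 and 519 after quantile normalization. edgeR called 441 and 507 with TMM and 464 and 547 with library totals, and DESeq2 403 and 416. With 1 library left out, the lone library of its group is assumed to vary like the other group, and such fits gave 6 to 830 and 14 to 751 calls, the lowest luminal count without basal replicate 1 and the lowest basal count without luminal replicate 2. Fold calls, 3431 and 3051, became 6535 and 7806 without a filter, 1852 and 1792 with the filter in both groups, 1438 and 1613 at an average of 100, and 1456 and 1133 at 4-fold. They ranged from 3760 to 5554 and from 3213 to 4406 when 1 library was left out, the first highest without luminal replicate 3. Scaling to nuclear protein-coding genes moved the median of all genes by 0.31 on the log2 scale and gave 4551 and 2147 fold calls, 67.9% luminal against 52.9%.

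Of the 10 genes, limma called 0 and 0. It called 2 luminal and 2 basal genes with the filter in both groups, at an average of 100 and with either larger pseudocount, and 2 luminal genes after quantile normalization. edgeR called 2 and 3 with TMM and 2 and 4 with library totals, and DESeq2 2 and 3. At 4-fold, 1 luminal and 2 basal genes remained past the ratio of averages. Of the 75 pathway genes limma called 0 and 1, against 0 basal genes without a filter, 2 and 8 with the filter in both groups, 1 and 5 at an average of 100, 1 and 5 with pseudocount 10, 1 and 7 with pseudocount 32, 1 and 3 after quantile normalization, 2 and 10 and 2 and 11 with edgeR's TMM and library totals, 2 and 7 with DESeq2, and 0 to 1 basal genes without 1 library, 0 without either basal replicate or luminal replicate 2. Pathway genes 2-fold higher in luminal cells numbered 8 under nuclear protein-coding scaling and 3 to 9 without 1 library (9 without basal replicate 1), against 4. The Hbegf share difference was 14.5 points without the length correction and 7.32 to 12.6 without 1 library, and that of Egfr -61.2 to -42.3.

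Among alternative values of the 10 genes, 112 kept their direction and side of the threshold, 34 newly passed it and 1 turned direction. Of the list medians, which have no test, 117 kept their direction and 3 turned. Btc was at -0.36 without basal replicate 1 and 6.43 without basal replicate 3, and the median of the PI3K-AKT, PLC, SRC and STAT list was 0.20 after quantile normalization, 0.16 under nuclear protein-coding scaling and ran from -0.46 without luminal replicate 2 to 0.21 without luminal replicate 3. Nuclear protein-coding scaling also brought the medians of ligand release to -0.06, of adaptors and RAS-MAPK genes to -0.07 and of receptor inhibitors to -0.43, and quantile normalization the first pair to -0.19 and -0.12. The cause was not tested.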
